A study of Mus musculus with 14 samples.

Results

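Inhibitory checkpoint receptors are surface proteins that dampen T cell activation, and 8 of their genes were followed here: Pdcd1, Lag3, Tigit, Havcr2, Cd160, Cd200, Btla and Cd5. They were chosen by gene symbol among 26683 symbols of a count table, and all 8 were found and passed the filter on low counts, as did 13427 genes in all. The RNA came from splenic CD4 T cells of female mice aged 8 months. TC mice, a congenic line with the name B6.NZM-Sle1NZM2410/AegSle2NZM2410/AegSle3NZM2410/Aeg/LmoJ, carry lupus susceptibility intervals of NZM2410 on a B6 background, and C57BL/6J mice (B6) served as controls of the same age. Follicular helper T cells (Tfh) were sorted as CD4+ CD44+ CD162lo/- PD-1+ and naive T cells (Tn) as CD4+ CD44-. The protocol describes both types from each individual mouse. A Tfh and a Tn library of the same strain and number were taken as 1 mouse. There were 3 TC Tfh, 4 B6 Tfh, 3 TC Tn and 4 B6 Tn libraries from 7 mice, with the numbers 1, 2 and 4 for TC mice and 1 to 4 for B6 mice. PD-1 is the product of Pdcd1, so the Pdcd1 difference between Tfh and Tn describes the sort and is not a finding. The gate did not use CXCR5 and did not exclude regulatory or follicular regulatory T cells. In RNA of bulk cells, fewer cells that express a gene and less of its RNA per cell cannot be told apart.

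Checkpoint receptors are induced when a T cell meets antigen, and many of them recruit phosphatases through motifs in their cytoplasmic tails and so limit signals from the antigen receptor and from costimulation. Tfh cells of the germinal centre carry several of them at high density, PD-1 above all, while they help B cells make antibody. In lupus-prone mice Tfh cells accumulate.

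Library totals ran from 15162309 to 20191558 counts. Levels are CPM, counts scaled to a common library total with TMM factors, on which a floor of 3 counts lies between 0.150 and 0.191 CPM. The sum of 6 Tfh markers was 1699 to 1898 CPM in TC Tfh and 1871 to 2037 CPM in B6 Tfh, against 139.9 to 156 CPM in TC Tn and 136 to 162 CPM in B6 Tn. All 6 regulatory T cell markers were detected in every group, at a sum of 2627.5 to 2963 CPM in TC Tfh and 1886 to 2221.5 CPM in B6 Tfh, against 129 to 171 CPM in TC Tn and 129 to 179 CPM in B6 Tn. Both Tfh groups thus carried Tfh and regulatory T cell markers above every Tn library. Foxp3, which defines regulatory T cells, averaged 324 ± 67.2 CPM in TC Tfh and 311 ± 37.0 CPM in B6 Tfh (SD, n = 3 and 4). The 9 B cell markers were all detected in both Tfh groups, at a sum of 23.6 to 31.4 CPM in TC Tfh and 19.4 to 29.8 CPM in B6 Tfh. Of 8 CD8 T and NK cell markers Cd8a and Ncr1 were at 0 in both Tfh groups, while the sum was 31.0 to 41.9 CPM in TC Tfh and 33.2 to 55.1 CPM in B6 Tfh, against 89.5 to 99.7 CPM in TC Tn and 78.3 to 106 CPM in B6 Tn. The 8 myeloid markers summed to 3.87 to 7.03 CPM in TC Tfh, with S100a8 at 0, and to 9.72 to 19.9 CPM in B6 Tfh. The sum of 5 gamma delta T cell markers was 44.9 CPM in the Tfh library of B6 mouse 2 and between 3.39 and 10.6 CPM in the other 6 Tfh libraries. The part of such cells in the receptor levels was not tested.

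The genes lie on 6 chromosomes. In mm10 coordinates with the GENCODE M21 annotation, Pdcd1 is at chr1:94038305-94052553, Cd160 at chr3:96798763-96829351, Lag3 at chr6:124904361-124911705, Havcr2 at chr11:46454935-46481255 and Cd5 at chr19:10717116-10739002. Chromosome 16 holds 3 of them, Tigit at chr16:43648867-43664146, Btla at chr16:45224315-45257670 and Cd200 at chr16:45382135-45409053, with 124 kb between Btla and Cd200. Lag3 lies 16.1 kb from Cd4, and Cd5 lies 50.3 kb from Cd6, its paralogue. Cd160 overlaps Pdzk1 on the opposite strand, and as the strand setting of the counting is not given in the sources used here, reads of that overlap cannot be told apart.

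RefSeq promoter sequences of GRCm38.p6 were matched by symbol for 7 of the 8 genes, all but Lag3. Of the 5 genes called different between TC and B6 Tfh, 4 were lower in TC (Pdcd1, Tigit, Havcr2 and Cd5) and 1 higher (Btla). For these 5 the 250 bases before the RefSeq start are shown. They run 5′ to 3′ on the strand of the gene, and capitals mark matches, on either strand, to short motifs searched for. These were GGAAA of NFAT, TGANTCA of AP-1, CTTTG of TCF and LEF, TGTGGT of RUNX, TGTTTAC of FOXO, the NR4A and IRF motifs, and TTCNNNGAA shared by STAT and BCL6. The windows are chr1:94052554-94052803 (minus strand) for Pdcd1, chr16:43664185-43664434 (minus strand) for Tigit, chr11:46454681-46454930 (plus strand) for Havcr2, chr19:10738975-10739224 (minus strand) for Cd5 and chr16:45224087-45224336 (plus strand) for Btla.
Pdcd1: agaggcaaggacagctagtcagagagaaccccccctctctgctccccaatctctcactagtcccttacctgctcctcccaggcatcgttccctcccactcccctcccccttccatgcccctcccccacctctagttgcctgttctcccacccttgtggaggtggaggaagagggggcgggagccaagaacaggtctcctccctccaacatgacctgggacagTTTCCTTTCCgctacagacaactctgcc
Tigit: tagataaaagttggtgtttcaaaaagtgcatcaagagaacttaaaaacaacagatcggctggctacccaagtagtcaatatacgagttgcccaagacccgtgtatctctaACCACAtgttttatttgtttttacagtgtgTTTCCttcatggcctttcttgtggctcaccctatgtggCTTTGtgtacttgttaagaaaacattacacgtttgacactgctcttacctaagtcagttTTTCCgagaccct
Havcr2: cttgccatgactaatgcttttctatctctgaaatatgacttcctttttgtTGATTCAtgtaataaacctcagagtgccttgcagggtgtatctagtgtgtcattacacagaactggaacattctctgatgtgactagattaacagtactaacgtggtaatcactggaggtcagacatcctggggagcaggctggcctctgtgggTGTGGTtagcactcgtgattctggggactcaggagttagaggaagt
Cd5: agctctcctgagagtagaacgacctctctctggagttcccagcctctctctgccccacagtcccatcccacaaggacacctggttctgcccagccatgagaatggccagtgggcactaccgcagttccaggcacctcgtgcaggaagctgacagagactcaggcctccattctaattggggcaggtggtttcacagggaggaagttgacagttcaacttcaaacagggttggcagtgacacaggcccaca
Btla: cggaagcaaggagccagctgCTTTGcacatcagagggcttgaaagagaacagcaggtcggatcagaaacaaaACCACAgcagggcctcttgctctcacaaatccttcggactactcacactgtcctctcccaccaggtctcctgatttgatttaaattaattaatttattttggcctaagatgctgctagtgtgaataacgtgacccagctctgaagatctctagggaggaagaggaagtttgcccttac

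Pdcd1 held 2 adjoining NFAT matches, 28 to 24 and 23 to 19 bases before the start. Tigit held 2 NFAT matches, 1 TCF and LEF match and 1 RUNX match. Havcr2 held 1 AP-1 and 1 RUNX match, Btla 1 TCF and LEF and 1 RUNX match, and Cd5 none. Over the 7 genes, RUNX letters were in 4, NFAT in 2, TCF and LEF in 2 and AP-1 in 1. Among all 32851 RefSeq windows of the same length, 14.05% held the RUNX letters, 55.6% NFAT, 48.6% TCF and LEF and 6.75% AP-1. The motifs found in none of the 7, FOXO, NR4A, IRF and STAT and BCL6, were in 3.17%, 1.34%, 2.98% and 7.02% of all windows. None of these motifs was present in all 4 genes that were lower in TC Tfh. A match describes letters in a window and not binding. The bases just after the RefSeq start were found in a GENCODE transcript for 5 of the 7 genes, and not for Tigit and Havcr2. By the coordinates above, the windows of Cd5 and Btla run into the GENCODE gene, and those of Tigit and Havcr2 end short of it.

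**Figure D1:**
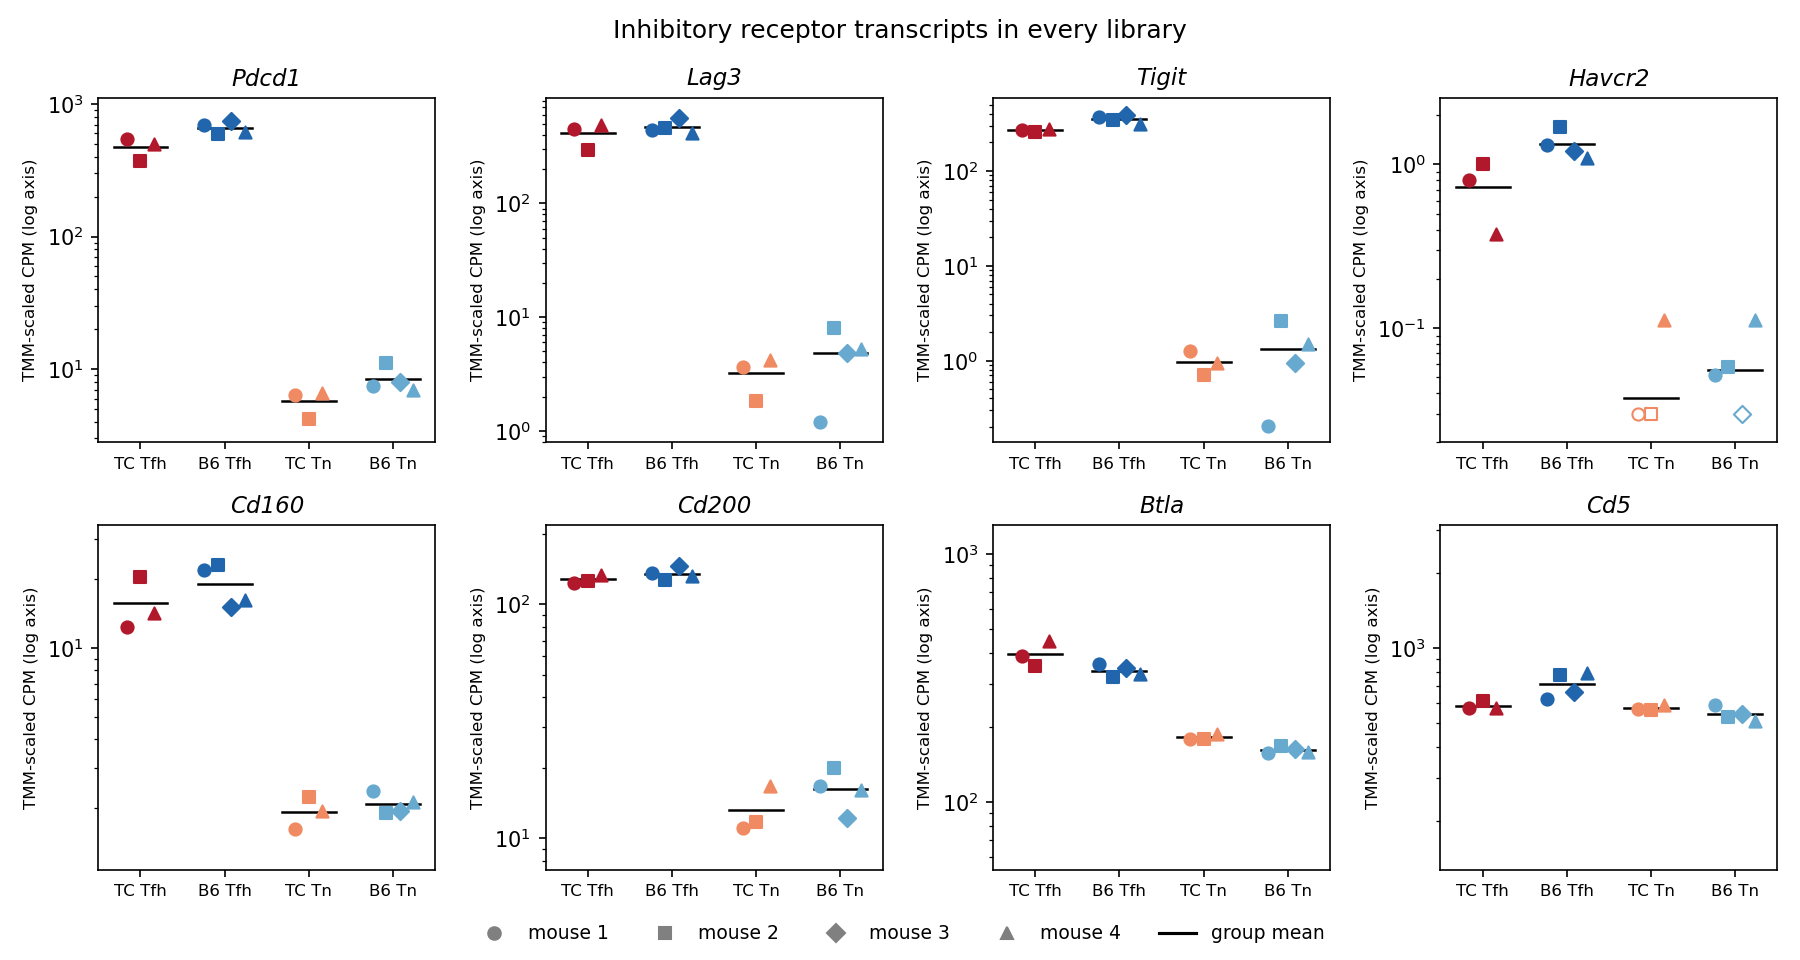
Each panel plots 1 receptor gene, with TMM-scaled CPM on a log axis for every library of TC Tfh, B6 Tfh, TC Tn and B6 Tn, the symbol giving the mouse and the line the group mean. Open symbols are Havcr2 libraries with no count, drawn at 0.03 CPM. Tfh libraries stand above Tn libraries for 7 genes in both strains, and for Cd5 in B6 but not in TC, where they overlap.

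Tfh cells of both strains carried more transcript of nearly every one of these receptors than naive cells of the same strain. In TC 7 of the 8 genes were called higher in Tfh, against 33.8% of all genes tested, and in B6 all 8, against 37.1%. A call is a Benjamini-Hochberg adjusted p below 0.05 in edgeR's quasi-likelihood test. Libraries did not overlap for 7 genes in TC, where this held for 35.7% of all genes, and for 8 in B6, where it held for 33.8%. The median log2 fold change of the 8 was 3.63 in TC and 3.80 in B6, with all genes at -0.01 and 0.02. Pdcd1 is the gene of the sorting marker, so its part in these counts describes the sort. Without it 6 of 7 were called higher in TC and 7 of 7 in B6, libraries did not overlap for 6 and 7, and the medians were 3.27 and 3.19.

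Tigit encodes a receptor that competes with the activating receptor CD226 for the ligand PVR. TC Tfh held 269.8, 255 and 277 CPM in mice 1, 2 and 4, and TC Tn 1.28, 0.700 and 0.947 CPM. B6 Tfh held 374, 348, 392 and 312 CPM in mice 1 to 4, and B6 Tn 0.206, 2.60, 0.936 and 1.52 CPM. Every Tfh library was far above every Tn library, and the lowest Tn library, B6 mouse 1, rested on 4 counts. The log2 fold change was 8.07 (SE 0.29, adjusted p = 5.84e-11) in TC and 8.11 (SE 0.24, adjusted p = 5.52e-12) in B6, the largest of the 8 genes in each strain. Within mice the ratio of Tfh to Tn was 211 to 365 in TC and 134 to 1814.5 in B6.

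Lag3 encodes a CD4-like receptor for MHC class II. TC Tfh held 455, 296 and 488 CPM and TC Tn 3.62, 1.84 and 4.18 CPM. B6 Tfh held 441, 462, 563 and 417 CPM and B6 Tn 1.19, 8.10, 4.86 and 5.28 CPM. TC mouse 2 was lowest in both cell types of its strain, and in B6 Tn mouse 1 was lowest, at 23 counts, and mouse 2 highest, the order also seen for Tigit. The log2 fold change was 6.98 (SE 0.42, adjusted p = 3.87e-08) in TC and 6.62 (SE 0.35, adjusted p = 7.79e-09) in B6.

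Pdcd1, the gene of the sorting marker, held 542, 373 and 501 CPM in TC Tfh and 6.34, 4.20 and 6.57 CPM in TC Tn. It held 694, 590.4, 740.2 and 618 CPM in B6 Tfh and 7.48, 11.1, 8.02 and 7.02 CPM in B6 Tn. Within mice the ratio of Tfh to Tn was 76.2 to 88.9 in TC and 53.2 to 92.8 in B6. Cxcr5, the chemokine receptor that leads Tfh cells into follicles and was not in the gate, had ratios of 73.6 to 93.8 in TC and 48.6 to 105 in B6.

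Havcr2 encodes TIM-3, a receptor best known from T helper 1 and exhausted T cells, and was scarce. The TC Tfh libraries held 14, 16 and 7 counts and the TC Tn libraries 0, 0 and 2. The B6 Tfh libraries held 26, 34, 23 and 21 counts and the B6 Tn libraries 1, 1, 0 and 2. All Tfh libraries were above the floor of 3 counts and all Tn libraries below it. From summed counts the ratio of Tfh to Tn was 18.4 (exact 95% counting interval 4.75 to 158) in TC and 23.8 (9.03 to 89.1) in B6, intervals that cover counting error only.

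Cd160, a receptor for HVEM (the product of Tnfrsf14), held 12.3, 20.6 and 14.2 CPM in TC Tfh and 1.61, 2.23 and 1.95 CPM in TC Tn. It held 22.1, 23.1, 15.1 and 16.3 CPM in B6 Tfh and 2.37, 1.91, 1.93 and 2.13 CPM in B6 Tn. The lowest Tfh library stood above the highest Tn library in both strains. The log2 fold change was 3.02 (SE 0.26, adjusted p = 3.45e-08) in TC and 3.19 (SE 0.21, adjusted p = 9.23e-10) in B6.

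Cd200 encodes a surface glycoprotein that signals through CD200R1 on other cells and so acts as a ligand. TC Tfh held 124, 126 and 133.5 CPM and TC Tn 11.02, 11.8 and 16.8 CPM. B6 Tfh held 136, 127, 145 and 133 CPM and B6 Tn 16.8, 19.9, 12.2 and 16.1 CPM. The groups did not overlap, and the log2 fold change was 3.27 (SE 0.15, adjusted p = 6.43e-11) in TC and 3.06 (SE 0.12, adjusted p = 1.22e-11) in B6.

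Btla, another HVEM receptor, was already abundant in naive cells. TC Tfh held 388, 355 and 445 CPM and TC Tn 179, 179 and 189 CPM. B6 Tfh held 359, 319.5, 345.5 and 329 CPM and B6 Tn 157, 168, 163 and 159 CPM. Tfh stood above Tn without overlap, by 2.17-fold in TC and 2.09-fold in B6 at log2 fold changes of 1.12 (SE 0.07, adjusted p = 2.13e-10) and 1.06 (SE 0.06, adjusted p = 4.07e-11).

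Cd5, a scavenger-domain receptor that tunes signals of the antigen receptor and is present on all T cells, differed least. TC Tfh held 571, 612 and 571 CPM and TC Tn 565, 559 and 586 CPM, and the groups overlapped. B6 Tfh held 619.8, 774, 664 and 789.7 CPM and B6 Tn 588, 525, 539.9 and 506 CPM, without overlap. The log2 fold change was 0.04 (SE 0.08, adjusted p = 0.715, 95% interval -0.14 to 0.21) in TC and 0.40 (SE 0.07, adjusted p = 7.72e-05, 95% interval 0.25 to 0.55) in B6. The call in B6 was lost when a fold above 1.5 was required (glmTreat). Within mice Tfh were above Tn in 2 of 3 TC mice and in 4 of 4 B6 mice.

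**Figure D2:**
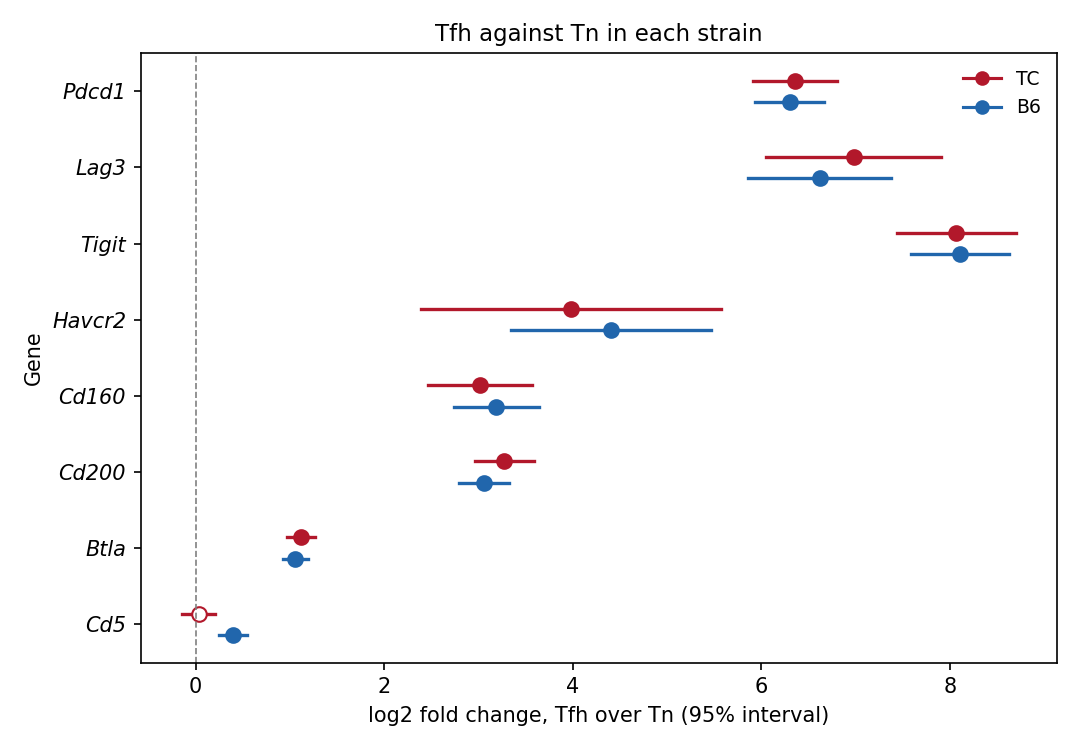
Points give the log2 fold change of Tfh over Tn for each receptor gene in TC and in B6, with the 95% interval, filled where called and open where not. Tigit has the largest value, 8.07 in TC and 8.11 in B6, and Cd5 in TC, at 0.04, is the one point not called.

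Per kilobase of exon, with all annotated GENCODE M21 exons of a gene joined, the order in Tfh was the same in both strains. These lengths ran from 919 bases for Tigit to 4928 for Cd5. The isoforms present and the annotation behind the counts are not known, so the order holds for these lengths only. Without division by length Cd5 was highest in Tfh, at 585 CPM in TC and 712 CPM in B6, while Tigit held 267 and 357 CPM. Tigit averaged 291 ± 11.9 CPM per kb in TC Tfh and 388 ± 37.6 in B6 Tfh, Pdcd1 244.5 ± 45.6 and 342 ± 35.6, and Lag3 196 ± 48.6 and 223 ± 30.4 (SD, n = 3 and 4). Cd5 averaged 119 ± 4.87 CPM per kb in TC Tfh and 144 ± 16.9 in B6 Tfh, Btla 117 ± 13.4 and 99.6 ± 5.13, and Cd200 38.5 ± 1.52 and 40.8 ± 2.30. Cd160 at 5.95 ± 1.64 and 7.25 ± 1.52 and Havcr2 at 0.268 ± 0.119 and 0.488 ± 0.0969 were the lowest. Tigit and Pdcd1 overlapped in both strains, and Pdcd1 and Lag3 as well as Cd5 and Btla overlapped in TC, so the ranges of these neighbours were not apart. Within libraries, however, Tigit was above Pdcd1 in every Tfh library, and Pdcd1 was above Lag3 in every TC Tfh library. Cd5 was above Btla in TC Tfh mice 1 and 2 and below it in mouse 4. In Tn Cd5 led at 116 ± 2.89 CPM per kb in TC and 109.5 ± 7.07 in B6, followed by Btla at 53.7 ± 1.61 and 47.7 ± 1.502, both apart from all genes below them. Cd200, Pdcd1, Lag3, Tigit and Cd160 followed in this order, with means between 3.97 and 0.731 CPM per kb in TC Tn and between 4.89 and 0.790 in B6 Tn. Each overlapped the next one, except Pdcd1 and Lag3 in TC.

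**Figure D3:**
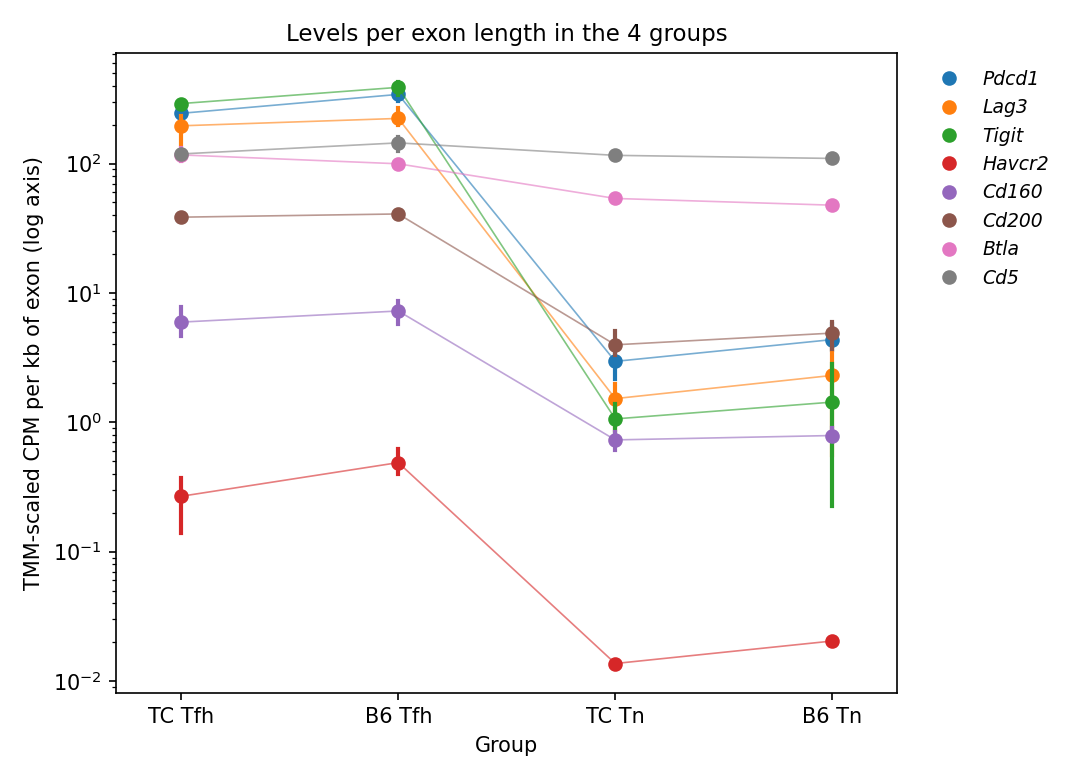
Points are group means in TMM-scaled CPM per kb of exon on a log axis for TC Tfh, B6 Tfh, TC Tn and B6 Tn, and vertical bars run from the lowest to the highest library (not drawn for Havcr2 in Tn, where libraries are at 0). Thin lines join the points of 1 gene. Tigit, Pdcd1 and Lag3 lead in Tfh, Cd5 and Btla in Tn.

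Between the strains, Tfh cells of TC mice had less Pdcd1, Tigit, Havcr2 and Cd5 transcript and more Btla than Tfh cells of B6 mice. Of the 8 genes 4 were called lower, against 25.9% of all genes tested, and 1 was called higher, against 24.7%. Since 50.7% of all genes were called between the strains, 5 of 8 is near the background. When a fold above 1.5 was required of the difference (glmTreat), none of the 5 was called. Libraries did not overlap for the 4 lower genes (25.9% of all genes) and for none that was higher (24.3% of all genes). The median of the 8 was -0.29 on the log2 scale and that of all genes -0.02.

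Pdcd1 averaged 472 ± 88.0 CPM in TC Tfh and 661 ± 68.8 CPM in B6 Tfh (SD, n = 3 and 4), and the highest TC library lay below the lowest B6 library. The log2 fold change was -0.49 (SE 0.14, adjusted p = 0.00981). PD-1 protein was a criterion of the sort in both strains, so these are cells that all passed the gate. Cxcr5 was also lower, with 415 ± 16.7 CPM in TC Tfh and 622 ± 13.8 CPM in B6 Tfh (log2 fold change -0.58, adjusted p = 0.000932), and the ratio of Pdcd1 to Cxcr5 counts was 1.14 ± 0.209 in TC Tfh and 1.06 ± 0.130 in B6 Tfh.

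Tigit averaged 267 ± 10.9 CPM in TC Tfh and 357 ± 34.5 CPM in B6 Tfh, again without overlap, a log2 fold change of -0.42 (SE 0.15, adjusted p = 0.0375). This call was lost with DESeq2 (adjusted p = 0.494), without the low-count filter (adjusted p = 0.0756) and without any 1 of 7 libraries: each TC Tfh library, B6 Tfh mouse 1, 2 or 3, or TC Tn mouse 4 (adjusted p 0.0512 to 0.130). Cd226, its activating counterpart, averaged 45.7 ± 15.22 CPM in TC Tfh and 38.4 ± 4.17 CPM in B6 Tfh and was not called (adjusted p = 0.228). The ratio of Tigit to Cd226 counts was 6.29 ± 2.00 in TC Tfh and 9.42 ± 1.79 in B6 Tfh, with 7.91 as the highest TC value and 7.98 as the lowest B6 value.

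Havcr2 averaged 0.729 ± 0.323 CPM in TC Tfh and 1.33 ± 0.264 CPM in B6 Tfh, from 37 and 104 counts in all, a log2 fold change of -0.89 (SE 0.32, adjusted p = 0.0233). The call was lost with DESeq2 (adjusted p = 0.137), with mouse as a random replicate block in limma voom (adjusted p = 0.0504), without B6 Tfh mouse 2 (adjusted p = 0.0782) and without TC Tfh mouse 4 (log2 fold change -0.55, adjusted p = 0.192). B6 mouse 2 was the Tfh library with the most Havcr2 and the one with 44.9 CPM of gamma delta T cell markers. The summed myeloid markers, given above, were likewise lower in every TC Tfh library than in any B6 Tfh library, and the part of these cells was not tested.

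Cd5 averaged 585 ± 24.0 CPM in TC Tfh and 712 ± 83.04 CPM in B6 Tfh, without overlap (log2 fold change -0.28, SE 0.08, adjusted p = 0.00562). Cd4, the coreceptor used in the sort, fell to 1597 ± 40.7 CPM in TC Tfh, against 1936 ± 111 CPM in B6 Tfh (adjusted p = 0.00102), and the ratio of Cd5 to Cd4 counts was 0.366 ± 0.00562 in TC Tfh and 0.368 ± 0.0360 in B6 Tfh. The 5 T cell markers (Cd3e, Cd3d, Cd3g, Cd4 and Cd28) summed to 3908 to 4086 CPM in TC Tfh and 4333 to 4933 CPM in B6 Tfh. Of these markers 3 were called lower and 0 higher in TC Tfh, with a median log2 fold change of -0.28. The shares of all genes were 25.9% lower and 24.7% higher. The part of this difference in the receptor levels was not tested. The calls for Pdcd1 and Cd5 held with each library left out in turn (adjusted p up to 0.0495 and 0.0309).

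Btla averaged 396 ± 45.7 CPM in TC Tfh and 338 ± 17.4 CPM in B6 Tfh (log2 fold change 0.23, SE 0.06, adjusted p = 0.00717). The lowest TC library, mouse 2, lay below the highest B6 library, mouse 1, and without TC mouse 4 the call was lost (log2 fold change 0.15, adjusted p = 0.0597). The ratio of Pdcd1 to Btla counts did not overlap between the strains, at 1.19 ± 0.182 in TC Tfh (1.05 to 1.40) and 1.95 ± 0.132 in B6 Tfh (1.85 to 2.14). It sets a gene called lower in TC Tfh against one called higher, so it restates these 2 differences and is no further evidence.

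Lag3, Cd160 and Cd200 did not pass the test in Tfh. Lag3 averaged 413 ± 102 CPM in TC Tfh and 471 ± 64.1 CPM in B6 Tfh, a log2 fold change of -0.19 (95% interval -0.76 to 0.38, adjusted p = 0.569), or 0.02 without TC mouse 2. Cd160 averaged 15.7 ± 4.33 CPM in TC Tfh and 19.1 ± 4.01 CPM in B6 Tfh (log2 fold change -0.30, 95% interval -0.65 to 0.05, adjusted p = 0.147), and was called lower without TC mouse 2 (log2 fold change -0.51, adjusted p = 0.0132). Cd200 averaged 128 ± 5.05 CPM in TC Tfh and 135 ± 7.63 CPM in B6 Tfh, with a 95% interval of the log2 fold change of -0.33 to 0.16. Among the 3 TC Tfh libraries, mouse 2 was the lowest for Pdcd1, Lag3, Tigit and Btla and the highest for Havcr2, Cd160 and Cd5.

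In naive cells 1 of the 8 genes was called between the strains. Btla averaged 182 ± 5.46 CPM in TC Tn and 162 ± 5.10 CPM in B6 Tn (log2 fold change 0.17, SE 0.07, adjusted p = 0.0365), where 25.8% of all genes were called higher and 26.1% lower. Its libraries were higher without overlap, as were those of 27.4% of all genes. The call was lost with DESeq2 (adjusted p = 0.0581), with RLE size factors (adjusted p = 0.0519) and without any 1 of 8 libraries: each TC Tn library, B6 Tn mouse 1, 3 or 4, TC Tfh mouse 1 or B6 Tfh mouse 4 (adjusted p 0.0528 to 0.135). Pdcd1 averaged 5.71 ± 1.31 CPM in TC Tn and 8.41 ± 1.85 CPM in B6 Tn, lower without overlap like 28.1% of all genes, with a log2 fold change of -0.54 (95% interval -1.06 to -0.03, adjusted p = 0.0736). Pdcd1 was called lower with DESeq2 (adjusted p = 0.0238), in a fit of the Tn libraries only (adjusted p = 0.0280) and without TC Tfh mouse 2 (adjusted p = 0.0273). Cd200 averaged 13.2 ± 3.13 CPM in TC Tn and 16.2 ± 3.17 CPM in B6 Tn (log2 fold change -0.30, adjusted p = 0.122), and was called lower without B6 Tn mouse 3 (adjusted p = 0.0168) or TC Tn mouse 4 (adjusted p = 0.00832). The remaining 5 genes were not called and overlapped between the strains. With 2 counts in TC Tn and 4 in B6 Tn, a strain difference of Havcr2 was not detectable at this depth.

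**Figure D4:**
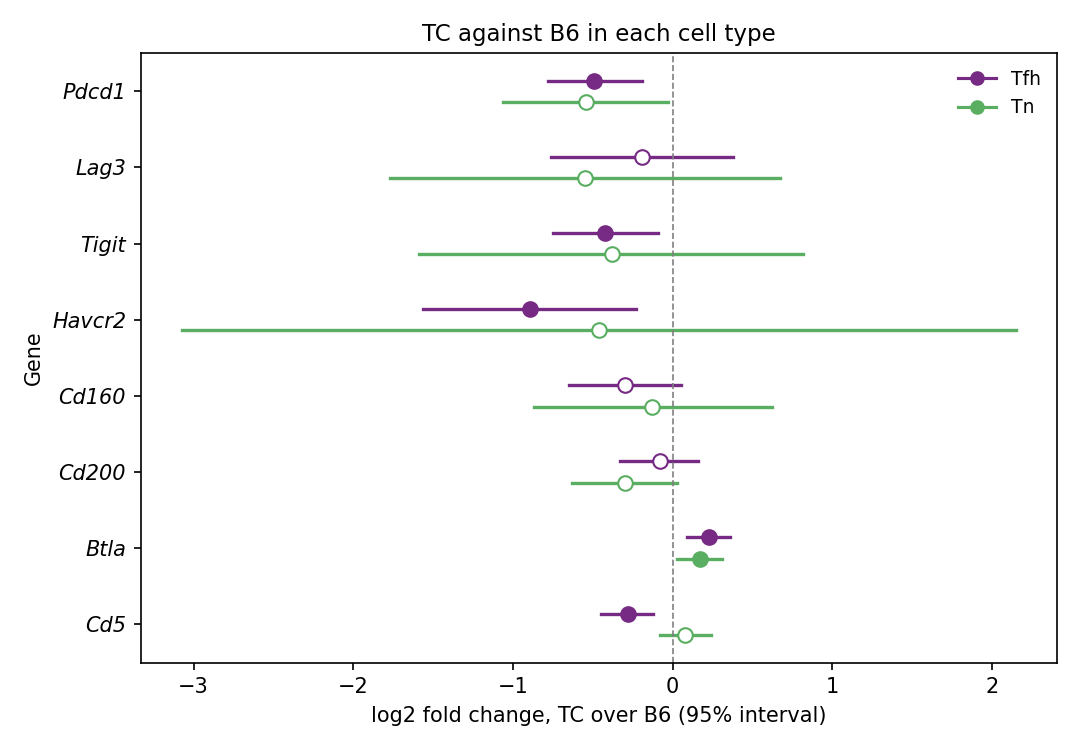
Points give the log2 fold change of TC over B6 for each receptor gene in Tfh and in Tn, with the 95% interval, filled where called and open where not. In Tfh, Pdcd1 (-0.49), Tigit (-0.42), Havcr2 (-0.89) and Cd5 (-0.28) lie below 0 and Btla (0.23) above it, while in Tn the one filled point is Btla (0.17).

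Whether the difference between Tfh and Tn depended on the strain was tested by the interaction, which is positive where the ratio of Tfh to Tn is larger in TC. None of the 8 genes was called in edgeR, where 2.1% of all genes were (282 genes, or 713 with mouse as a fixed replicate block, which called none of the 8 either). At an unadjusted p under 0.05 there was 1, Cd5, and DESeq2 called 1 of the 8, also Cd5. Its log2 difference was -0.36 (SE 0.11, 95% interval -0.59 to -0.13, adjusted p = 0.105). It was called with DESeq2 (adjusted p = 0.0326), without the low-count filter (adjusted p = 0.0419) and without B6 Tfh mouse 1 (adjusted p = 0.0335). The other 7 genes had adjusted p of 0.690 or more, with a 95% interval of -0.14 to 0.25 for Btla and wide ones for Tigit (-1.39 to 1.32) and Havcr2 (-4.13 to 3.27).

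Cd6, the paralogue next to Cd5 and likewise a receptor that tunes T cell signalling, passed the test of the interaction. It averaged 543 ± 18.1 CPM in TC Tfh and 572 ± 8.79 CPM in TC Tn, and 789 ± 75.1 CPM in B6 Tfh and 590.4 ± 34.2 CPM in B6 Tn. Within mice its ratio of Tfh to Tn was 0.927 to 0.978 in TC and 1.13 to 1.55 in B6, beside 0.974 to 1.10 in TC and 1.05 to 1.56 in B6 for Cd5. The interaction of Cd6 was -0.49 (SE 0.10, adjusted p = 0.0106). A430093F15Rik, an annotated transcript that lies between the pair, was higher in Tfh of both strains (log2 fold change 1.96 in TC and 2.06 in B6, adjusted p = 7.64e-11 and 4.33e-12). Between the strains in Tfh its adjusted p was 0.473. Of 4 genes tested within 100 kb of Cd5, 2 were called higher and 1, Cd6, lower in TC Tfh over B6 Tfh. In Tn 2 were higher and 0 lower. Of all genes 24.7% were higher and 25.9% lower in Tfh, and 25.8% and 26.1% in Tn. The 2 higher were Vps37c (log2 fold change 0.29 in Tfh and 0.41 in Tn) and Vwce (4.98 and 3.73). Vwce held 0.218 CPM in TC Tfh and 0 in B6 Tfh.

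**Figure D5:**
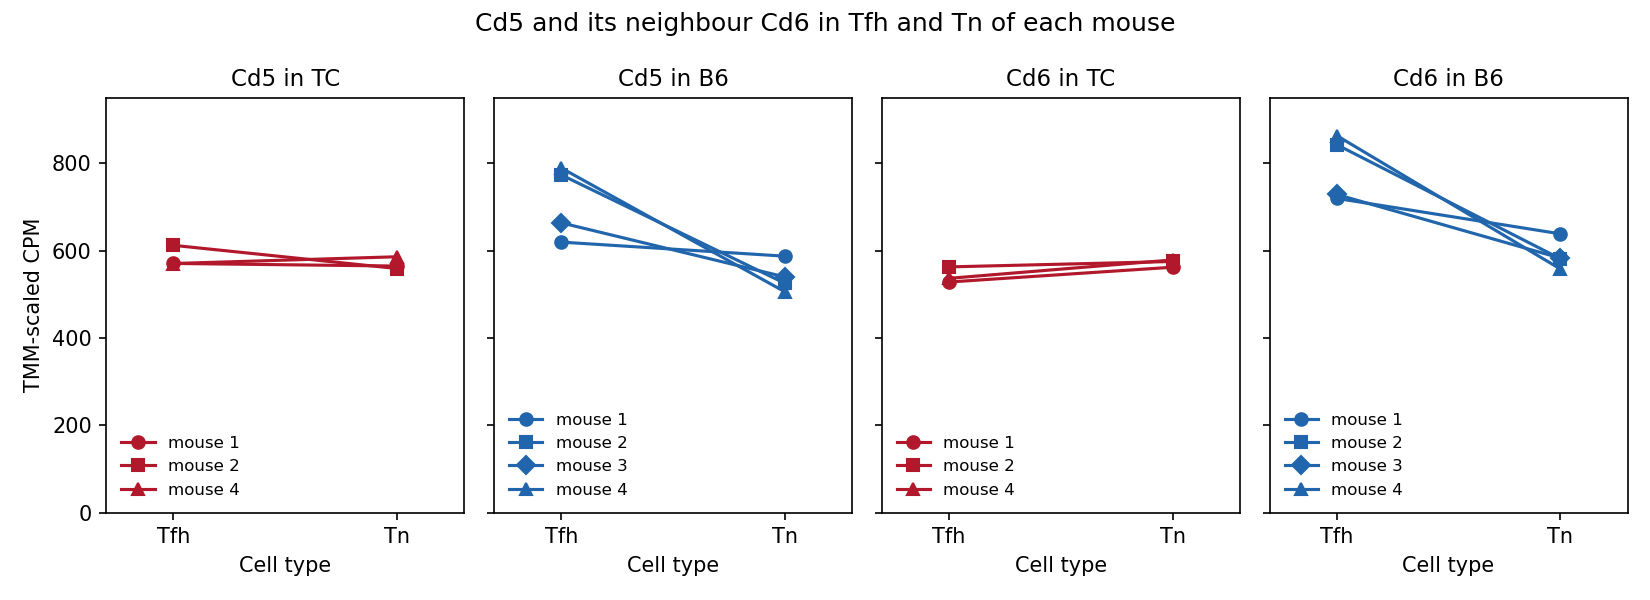
Lines join the Tfh and the Tn library of each mouse for Cd5 and Cd6, in TMM-scaled CPM from 0, with TC left of B6 for each gene. In the 4 B6 mice both genes are higher in Tfh, while in the 3 TC mice the lines are close to level, with Cd6 lower in Tfh in each.

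Along the chromosomes, 57 annotated genes start within 100 kb of one of the 8, and 27 of them passed the filter on low counts. None of these 27 is near Pdcd1, Tigit or Cd200. Of the 27, 12 were called higher and 7 lower in Tfh in TC, and 15 and 7 in B6. The 12 near Lag3 had 7 higher and 1 lower in TC, and 9 and 1 in B6, the share of all genes being 33.8% higher and 32.4% lower in TC and 37.1% and 33.4% in B6. Among them the rise was largest for Pianp (log2 fold change 5.03 in TC and 5.10 in B6) and P3h3 (4.20 and 3.87), and Gpr162 rose as well (2.40 and 2.37). Cops7a was the one called lower (-0.24 and -0.27). Cd4, next to Lag3, was higher in Tfh (log2 fold change 0.39 in TC and 0.65 in B6, adjusted p = 3.50e-05 and 9.78e-09), as was Ptms, which encodes parathymosin (2.43 and 2.15, adjusted p = 2.51e-12 and 7.50e-13). All of these rises were smaller than that of Lag3.

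The gene whose pattern was nearest to each receptor over the 14 libraries was found by the root mean square difference of log2 CPM with a prior count of 2, each gene centred on its mean, among 9317 genes with a mean of at least 5 CPM. It was Cxcr5 at 0.231 for Pdcd1, Cxcr3 at 0.355 for Lag3 and Gpm6b at 0.315 for Tigit. No gene is given for Havcr2, whose Tn libraries held 0 to 2 counts, where the prior count sets the value. It was Art3 at 0.218 for Cd160, Plekho1 at 0.196 for Cd200, Btbd19 at 0.058 for Btla and Nabp2 at 0.089 for Cd5. The last 2 distances are the smallest, for genes that themselves vary least (0.556 and 0.183 log2 units about their mean, against 4.14 for Tigit). The closest pair among the 8 was Cd160 and Cd200 at 0.320. These distances are descriptions, and the 14 libraries share 7 mice.

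Of 14 other inhibitory receptor genes 12 were tested, and they did not move one way. In TC Tfh over TC Tn 4 were called higher and 5 lower, and in B6 Tfh over B6 Tn 5 higher and 5 lower, where 33.8% of all genes were higher and 32.4% lower in TC and 37.1% and 33.4% in B6, with median log2 fold changes of -0.18 and 0.21. Ctla4, which competes with CD28 for costimulatory ligands, averaged 630.2 ± 169.8 CPM in TC Tfh and 39.5 ± 18.2 CPM in TC Tn, and 230.1 ± 15.9 CPM in B6 Tfh and 14.2 ± 4.87 CPM in B6 Tn. Lilrb4, of a family of closely similar genes whose reads may be shared, rose to 15.9 ± 2.18 CPM in TC Tfh and 15.5 ± 1.97 CPM in B6 Tfh, with means under the floor of 3 counts in both Tn groups. Lair1, a collagen receptor, fell to 0.538 ± 0.335 CPM in TC Tfh against 12.3 ± 0.942 CPM in TC Tn, and to 0.959 ± 0.371 CPM in B6 Tfh against 12.3 ± 1.07 CPM in B6 Tn. Klrd1, which encodes CD94 of natural killer cell receptors, fell to 0.272 ± 0.0517 CPM in TC Tfh against 18.8 ± 1.13 CPM in TC Tn, and to 0.673 ± 0.431 CPM in B6 Tfh against 8.24 ± 1.303 CPM in B6 Tn. The sum of the 8 CD8 T and NK cell markers, given above, was likewise lower in every Tfh library than in any Tn library. Prf1 was its largest part in Tn, at 46.7 CPM in TC and 66.2 CPM in B6, against 2.11 and 3.15 CPM in Tfh. The markers did not all move this way. Of 5 tested, 1 was called higher and 3 lower in Tfh in TC, and 2 and 2 in B6, with Klrb1c higher in Tfh of both strains. The part of such cells in Klrd1 was not tested.

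Between the strains 2 of the 12 were called higher and 2 lower in TC Tfh, and 4 higher and 2 lower in TC Tn. Of all genes 24.7% were higher and 25.9% lower in TC Tfh, and 25.8% and 26.1% in TC Tn. Ctla4 held 733, 723 and 434 CPM in TC Tfh and 219, 224, 254 and 224 CPM in B6 Tfh. Every TC library was above every B6 library, a log2 fold change of 1.45 (SE 0.30, adjusted p = 0.00234), the direction opposite to that of Pdcd1. In Tn the log2 fold change of Ctla4 was 1.48 (SE 0.38, adjusted p = 0.00733), and TC mouse 4, the lowest TC library in both cell types, lay within the range of B6 Tn. Ctla4 is also 1 of the 6 regulatory T cell markers, and of the other 5, 2 were called higher and 0 lower in TC Tfh over B6 Tfh. Their sum without Ctla4 was 2193 to 2239 CPM in TC Tfh and 1662 to 2003 CPM in B6 Tfh, without overlap. Ikzf2, which encodes Helios, averaged 1082 ± 54.3 CPM in TC Tfh and 784 ± 121 CPM in B6 Tfh (log2 fold change 0.47, adjusted p = 0.00465). Il10, an inhibitory cytokine, averaged 15.3 ± 6.27 CPM in TC Tfh and 3.14 ± 0.973 CPM in B6 Tfh (log2 fold change 2.27, adjusted p = 3.96e-06). Foxp3 was not called in Tfh (log2 fold change 0.05, adjusted p = 0.767), nor were Il2ra and Nt5e. In TC Tn over B6 Tn 2 of the 5 were lower and 0 higher, Foxp3 among the lower (log2 fold change -0.53, adjusted p = 0.0169). The part of these cells in the Ctla4 and other receptor levels was not tested. Cd244, a receptor of the SLAM family, averaged 1.07 ± 0.475 CPM in TC Tfh and 0.179 ± 0.157 CPM in B6 Tfh (adjusted p = 0.00106). These rest on 55 and 14 counts in all, and the B6 Tfh level is near the floor of 3 counts a library. In the interaction 2 of the 12 were called, Cd6 and Klrd1 (-2.51, adjusted p = 0.0231), both negative, against 2.1% of all genes in either direction. Klrd1 rests on 14 counts in TC Tfh and 53 in B6 Tfh in all, and its TC Tfh level is near the floor of 3 counts a library. The call of Klrd1 was lost without the Tfh library of B6 mouse 2 (adjusted p = 0.0677), of TC mouse 1 (0.0719) or of TC mouse 4 (0.0889), and with a fold above 1.5 required (0.181).

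The ligands of these receptors are found mostly on other cells, and the sorted T cells carried some of their transcripts. Of 9 tested ligand and partner genes 7 were called higher and 1 lower in TC Tfh over TC Tn, and 7 higher and 2 lower in B6 Tfh over B6 Tn. Of all genes 33.8% were called higher and 32.4% lower in TC, and 37.1% and 33.4% in B6. Pdcd1lg2, which encodes the PD-1 ligand PD-L2, averaged 29.6 ± 6.11 CPM in TC Tfh and 0.642 ± 0.353 CPM in TC Tn, and 33.4 ± 5.72 CPM in B6 Tfh and 0.882 ± 0.228 CPM in B6 Tn. Cd274, which encodes the PD-1 ligand PD-L1, averaged 136 ± 9.45 CPM in TC Tfh and 65.7 ± 1.73 CPM in TC Tn, and 97.8 ± 4.72 CPM in B6 Tfh and 49.6 ± 2.36 CPM in B6 Tn. Between the strains Cd274 was higher in TC in both cell types (log2 fold change 0.48 in Tfh and 0.41 in Tn, adjusted p = 3.58e-06 and 2.05e-05).

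Tnfrsf14, the ligand shared by BTLA and CD160, averaged 86.4 ± 8.77 CPM in TC Tfh and 68.1 ± 11.4 CPM in B6 Tfh (adjusted p = 0.0192), with libraries that overlap. That call was lost without the low-count filter (adjusted p = 0.0803), in a fit of the 2 groups alone (0.050008), and without TC Tfh mouse 1 (0.0516) or mouse 4 (0.0827). Cd200r1, the receptor of CD200, averaged 37.5 ± 10.1 CPM in TC Tfh and 37.7 ± 4.40 CPM in B6 Tfh (adjusted p = 0.938). Lgals9, which encodes galectin-9, a ligand of TIM-3, fell to 86.8 ± 9.11 CPM in TC Tfh against 160.4 ± 3.86 CPM in TC Tn, and to 109 ± 12.6 CPM in B6 Tfh against 198 ± 3.42 CPM in B6 Tn. Pvr, a ligand of TIGIT and CD226, averaged 52.9 ± 4.80 CPM in TC Tfh and 51.2 ± 2.48 CPM in TC Tn, and 42.2 ± 3.80 CPM in B6 Tfh and 73.8 ± 3.28 CPM in B6 Tn. Its interaction of 0.85 (SE 0.10, adjusted p = 0.000119) was the one call among the 9. Between the strains 4 of the 9 were called higher and 3 lower in TC Tfh, where 24.7% and 25.9% of all genes were. Pvrl2, which encodes a further ligand of TIGIT, was at 0 in all Tn libraries and averaged 0.172 ± 0.0519 CPM in TC Tfh and 1.18 ± 0.365 CPM in B6 Tfh. These rest on 9 and 92 counts in all, and the TC Tfh level is near the floor of 3 counts a library.

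Of 10 activating counterparts 8 were called higher and 0 lower in TC Tfh over TC Tn, and 9 higher and 0 lower in B6 Tfh over B6 Tn. The shares of all genes were 33.8% higher and 32.4% lower in TC, and 37.1% and 33.4% in B6. Tnfsf14, which encodes LIGHT, a further partner of HVEM, averaged 49.3 ± 7.47 CPM in TC Tfh and 0.856 ± 0.212 CPM in TC Tn, and 58.2 ± 5.85 CPM in B6 Tfh and 1.01 ± 0.335 CPM in B6 Tn. Between the strains 4 of the 10 were lower and 1 higher in TC Tfh, a share near the 50.7% of all genes called in either direction. Tnfrsf4, which encodes OX40, averaged 184 ± 11.95 CPM in TC Tfh and 286 ± 32.1 CPM in B6 Tfh (adjusted p = 4.92e-05). Tnfrsf18, which encodes GITR, averaged 131 ± 12.4 CPM in TC Tfh and 214 ± 23.2 CPM in B6 Tfh (adjusted p = 0.000109). Both were lower in every TC Tfh library than in any B6 Tfh library. Icos, a costimulatory receptor that Tfh cells need, was not called between the strains, and the ratio of Pdcd1 to Icos counts was 1.13 ± 0.151 in TC Tfh and 1.51 ± 0.266 in B6 Tfh.

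Downstream of the receptors, 9 of 20 genes were called higher and 6 lower in TC Tfh over TC Tn, and 10 higher and 5 lower in B6 Tfh over B6 Tn. They moved both ways, as did all genes, of which 33.8% were higher and 32.4% lower in TC, and 37.1% and 33.4% in B6. Ptpn11, which encodes SHP2, the phosphatase that PD-1 recruits, averaged 741 ± 68.5 CPM in TC Tfh and 121 ± 2.53 CPM in TC Tn, and 792 ± 100.2 CPM in B6 Tfh and 134 ± 6.61 CPM in B6 Tn. Rnf128, an E3 ligase of T cell anergy, was higher in Tfh by a log2 fold change of 6.20 in TC and 5.93 in B6 (adjusted p = 1.68e-14 and 1.00e-15). Between the strains 4 of the 20 were higher and 3 lower in TC Tfh, a smaller share than the 50.7% of all genes. Dgkz, a diacylglycerol kinase that limits antigen receptor signals, averaged 1406 ± 65.4 CPM in TC Tfh and 1011 ± 73.5 CPM in B6 Tfh (adjusted p = 5.87e-06). Sh2d1a, which encodes the adaptor SAP, averaged 122 ± 4.47 CPM in TC Tfh and 168 ± 13.7 CPM in B6 Tfh (adjusted p = 8.81e-06). In each TC Tfh library Dgkz was higher and Sh2d1a lower than in any B6 Tfh library. Of 5 genes of receptor shedding and turnover 3 were higher and 1 lower in Tfh in each strain, with the shares of all genes as given for the downstream genes. Among those higher was Fut8, a fucosyltransferase that modifies PD-1, at log2 fold changes of 0.84 in TC and 1.05 in B6.

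Of 20 transcription factors known from the control of checkpoint genes, 16 were called higher and 3 lower in Tfh in each strain. The shares of all genes were 33.8% higher and 32.4% lower in TC, and 37.1% and 33.4% in B6. Tox2, a factor of the Tfh programme, averaged 334 ± 18.1 CPM in TC Tfh and 0.790 ± 0.0783 CPM in TC Tn, and 304 ± 29.9 CPM in B6 Tfh and 0.850 ± 0.358 CPM in B6 Tn. Nfatc1, an NFAT factor that induces Pdcd1 in activated T cells, was higher in Tfh by 2.20 in TC and 2.12 in B6 on the log2 scale (adjusted p = 1.09e-14 and 1.28e-15). In TC Tfh over B6 Tfh 6 of the 20 were higher and 4 lower, a share near the 50.7% of all genes. Nr4a2, an orphan nuclear receptor induced by antigen receptor signals, averaged 29.0 ± 13.4 CPM in TC Tfh and 8.53 ± 1.74 CPM in B6 Tfh (adjusted p = 0.000443). Tbx21, which encodes T-bet, averaged 20.8 ± 4.29 CPM in TC Tfh and 29.3 ± 2.27 CPM in B6 Tfh (adjusted p = 0.00150). In each TC Tfh library Nr4a2 was higher and Tbx21 lower than in any B6 Tfh library. Tox, a factor of exhausted T cells, averaged 362 ± 37.5 CPM in TC Tfh and 68.0 ± 7.63 CPM in TC Tn, and 364 ± 26.8 CPM in B6 Tfh and 94.7 ± 4.22 CPM in B6 Tn, and was the one call of the 20 in the interaction, at 0.47 (SE 0.11, adjusted p = 0.0411). This call was lost without the low-count filter (adjusted p = 0.0733) and with a fold above 1.5 required (1.00). It held with TC Tfh mouse 2, TC Tn mouse 4, B6 Tfh mouse 1 or B6 Tfh mouse 3 left out and was lost with any other library left out, where adjusted p reached 0.133.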

How the data were processed

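RNA of sorted splenic T cells of 7 mice was sequenced in 14 libraries from RNeasy-purified RNA with a TruSeq Stranded kit, per the labels' protocols. The authors deposited raw read counts per gene symbol. Per the submitters' processing notes, the aligner was STAR 2.7, the genome build mm10, and DESeq2 served for testing. How reads were counted, with which strand setting and annotation, is not given in the sources used here, so counts of overlapping and antisense genes are uncertain. Source labels of the Tn samples name follicular helper cells, and titles were followed. An extraction protocol that speaks of WT and KO was not used for groups.

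From the counts, 13427 of 26683 symbols passed filterByExpr (count minimum 10) and were fitted in R 4.3.3 with edgeR 4.0.16 (TMM, quasi-likelihood with robust estimation, 4 group means and no mouse term), with p-values adjusted over all genes tested by Benjamini and Hochberg. The 5 tests compared Tfh with Tn within TC and within B6, TC with B6 within Tfh and within Tn, and the strains' Tfh to Tn differences with each other (the interaction). Counting intervals and floors cover counting error only. Counts of libraries within a group differed beyond sampling noise (chi-square per degree of freedom 5.31 to 20.3). The labels name separate mice. DESeq2 1.42.0, limma 3.58.1, other filters and scalings, a fold threshold, mouse blocks and each library left out were alternatives, and the tests were tested on simulated data.

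Same-numbered libraries of a strain were taken as pairs, since the protocol describes both cell types from each individual mouse. Their deviations from the group means correlated at 0.209, 0.207 and 0.257 for TC mice 1, 2 and 4, and at 0.299, 0.114, 0.039 and 0.203 for B6 mice 1 to 4.

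The receptors and all gene lists were chosen with earlier results of these data known. Named beside the 8 were up to 3 genes per list and comparison with the smallest adjusted p among those called, plus Tnfrsf14, Cd200r1, Cd274, Cd226 and Ctla4, the nearest gene by pattern and genes that start within 100 kb. Genes of this choice that are not named were left out for length. After values were seen, A430093F15Rik, Vps37c, Vwce, Ptms, Cd4, Pianp, P3h3, Gpr162 and Cops7a were picked among the genes within 100 kb. Cxcr5, Ikzf2 and Il10 were likewise picked as markers, and the motifs for the promoters. List genes were matched by symbol or RefSeq synonym.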

Additional observations from a re-analysis of the deposited data

How the results depend on the processing

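With a required fold above 1.5 (glmTreat), 3963 genes were called between Tfh and Tn in TC and 4170 in B6, 617 between the strains in Tfh, 808 in Tn and 36 in the interaction, and of the 8 receptors 0 were higher and 0 lower in TC Tfh and 0 higher in TC Tn. At that fold Cd5 also lost its call between Tfh and Tn in B6. That fold also ended the calls between the strains in Tfh of Cd274, Cd6, Ctla4, Dgkz, Sh2d1a, Tbx21, Tnfrsf4, Tnfrsf14 and Tnfrsf18, those in Tn of Cd274 and Ctla4, and those in the interaction of Cd6, Klrd1, Pvr and Tox. DESeq2 called 2 of the 8 lower in TC Tfh, 0 higher and 1 lower in TC Tn, and 535 genes in the interaction with 1 of the 8 lower. RLE size factors left 0 of the 8 higher in TC Tn, and a fit of the groups compared called 1 lower there. Without the low-count filter 1 of the 8 was called lower in the interaction. The interaction had 713 genes with mouse as a fixed replicate block and 568 with mouse as a random replicate block (limma voom). The fixed block changed no call of the 8 in the 3 comparisons it can fit, while strain differences cannot be estimated with it. With 1 library left out, 2 to 4 of the 8 were lower and 0 to 1 higher in TC Tfh, 0 to 1 higher and 0 to 1 lower in TC Tn, and 137 to 299 genes with 0 to 1 of the 8 lower were called in the interaction.

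Of 849 values of the 8 under alternatives, 790 kept their direction and side of the threshold, 31 were no longer called, 9 were newly called and 19 changed sign. All the sign changes here were in values that were not called, and their cause was not tested. Between Tfh and Tn in TC, Cd5 was -0.01 without the filter. In TC over B6 Tfh, with 1 library left out, Lag3 ran from -0.31 to 0.02, Cd200r1 from -0.24 to 0.13 and Cd226 from -0.03 to 0.44, and Cd200r1 was 0.00 at a count minimum of 50 and in a fit of the groups compared. In TC over B6 Tn, Tigit was 0.05 with the random block and ran from -0.77 to 0.18, and Havcr2 from -3.19 to 0.08. In the interaction the ranges were -0.11 to 0.22 for Pdcd1, -0.01 to 0.71 for Lag3, -0.60 to 0.35 for Tigit (0.01 with DESeq2), -0.97 to 2.29 for Havcr2, -0.02 to 0.15 for Btla, -0.37 to 0.20 for Ctla4 (0.02 with the fixed and 0.00 with the random block), -0.03 to 0.17 for Tnfrsf14 and -0.32 to 0.15 for Cd226. Depth limits Havcr2, and in Tn also Tigit, at 4 to 45 counts a library.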
